A study of Homo sapiens with 9 samples.

Results

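The class I antigen presentation genes described here are HLA-B, HLA-C, B2M, TAP1, TAP2, TAPBP, PSMB8, PSMB9 and PSMB10, chosen by name as class I heavy chains, their light chain, the peptide transporter, the loading factor tapasin and the inducible proteasome subunits. Of these 9 genes, 7 had a row among the 22290 genes of the table, and TAP1 and TAP2 were not analysed here. RNA was sequenced from 9 libraries of the established human neuroblastoma line IMR-32, as labelled. There were 3 libraries of the parental (wild-type) cells, 3 labelled as a knockdown (KD) of TRAP-1, the mitochondrial relative of the chaperone Hsp90, and 3 labelled as overexpressing (OE) it. The comparison asks how the RNA of these genes differed from the parental cells in each group. The table holds deposited log2 values after a regularized transform (rlog), which put the libraries on one scale and draw each gene toward its own mean. A difference of rlog values is therefore smaller than the log2 fold change behind it, by an amount that was not measured here, so differences are given on the rlog scale and not as folds. The depth of each library cannot be read from such values and is unknown here. A gene is called where the adjusted p of limma, a linear model fitted to all 22290 genes, is under 0.05. The labels do not say that the replicates came from separate cultures, so p-values measure the spread between these libraries, which may be technical.

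Class I molecules carry peptides made inside the cell to its surface, where cytotoxic T cells read them. The proteasome cuts proteins into peptides, the TAP transporter moves these into the endoplasmic reticulum, tapasin and its partners load them onto a heavy chain bound to β2-microglobulin, and the complete molecule leaves for the surface. Neuroblastoma cells are known for low class I at the surface, and interferon-γ is known to raise most of these genes, in part through the transactivator NLRC5.

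TRAP1 itself was checked first, against the labels. Its rlog values were 10.67, 10.66 and 10.65 in the parental libraries, 10.79, 10.79 and 10.83 in those labelled KD and 10.67, 10.63 and 10.74 in those labelled OE. All 3 libraries labelled KD lay above all 3 parental libraries, whereas those labelled OE overlapped them. The difference from parental was 0.14 for KD (adjusted p = 1.8e-05) and 0.018 for OE (adjusted p = 0.643). The OE difference was -0.012 without OE replicate 3 and -3.9e-05 with each library centred on its median. It was called only with the medians of 20-Mb blocks of the genome removed (0.064, adjusted p = 0.0348, against 0.0348 to 0.999 over all alternatives). TRAP1 RNA was thus higher, not lower, under the KD label, and in OE it was not called in the values as deposited, so KD and OE name only how the libraries were labelled. Of the exonic bases annotated to TRAP1, 28.5% lie in exons of other genes, whose part in these values was not tested.

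The label of the cells was set against marker genes. Of 10 listed markers of adrenergic neuroblastoma 8 had a row, and 4 of these had a mean rlog under 5, as did 37.2% of all genes. The mean rlog of the noradrenergic regulator PHOX2A was 1.34, that of MYCN, which IMR-32 is known to carry in many copies, was 2.54, and that of tyrosine hydroxylase (TH) was 2.73. CHGA had 3.97, CHGB 5.77, HAND2 6.34, GATA3 7.27 and ISL1, the highest of the list, 9.29. Summed over the list, the log2 level was 9.92 to 9.96 in the parental libraries, 9.82 to 9.85 in KD and 9.86 to 9.94 in OE, and 1 gene was called higher and 4 lower in KD and 0 and 2 in OE, where limma gave 0 higher also at an unadjusted p under 0.05. Beside these counts, 26.9% of all genes were called higher and 26.9% lower in KD, and 16.9% and 18.0% in OE. Of the 8 markers 2, GATA3 and ISL1, were thus above the median of all genes (7.05), and the cells are called here by their label alone.

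Markers of other cell types were mixed. Of the leukocyte list 6 of 10 genes had a row and 5 had a mean rlog under 5, with PTPRC (CD45) at 2.65 and LYZ highest at 5.82. Of the epithelial list 8 of 10 had a row and KRT18 was highest (12.04), of the fibroblast list 9 of 9 and VIM (15.89), and of the endothelial list 5 of 5 and PECAM1 (9.50). Summed over the endothelial list, the log2 level was at most 10.03 in the parental libraries, 10.12 to 10.16 in those labelled KD and 9.54 to 9.68 in those labelled OE, with 2 of the 5 genes at a mean rlog under 5. Of the markers of these cells, CDH5 had a mean rlog of 0.62, VWF 5.05 and KDR 7.45. Most of this sum is PECAM1, which was higher by 0.47 in KD and fell by 0.28 in OE, while KDR fell by 1.32 and 0.84, and the median difference of the list was -0.017 in KD and -0.033 in OE. The sum of the fibroblast list was 15.82 in all 3 parental libraries, 16.25 to 16.26 in KD and 15.99 to 16.02 in OE, with 6 of the 9 genes at a mean rlog under 5, COL3A1 lowest at 1.16, and PRRX1 at 12.36 and PDGFRB at 8.53. Most of that sum is VIM alone, and the median difference of the list was 0.050 in KD and 0.078 in OE. The sum of the leukocyte list was 6.79 to 6.82 in the parental libraries, 6.57 to 6.61 in KD and 6.63 to 6.73 in OE, and that of the epithelial list was 12.54 to 12.56, 12.55 to 12.61 and 12.40 to 12.42. Against parental, limma called 0 leukocyte genes higher, with 0 also at an unadjusted p under 0.05, and 3 lower in each comparison. In KD and OE in turn, 1 and 1 epithelial, 2 and 3 fibroblast and 2 and 0 endothelial genes were called higher, and 1 and 3, 1 and 0, and 1 and 2 were called lower. For both counts of 0 limma gave 0 also at an unadjusted p under 0.05. Among all genes the shares called higher and lower were 26.9% and 26.9% in KD and 16.9% and 18.0% in OE. In bulk RNA, fewer cells of a type and less RNA per cell cannot be told apart. The part of these shifts in the class I differences was not tested.

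The mean rlog of the 7 class I genes ran from 7.10 for PSMB10 to 14.27 for B2M, and the median over all genes was 7.05. HLA-B and HLA-C moved apart from the parental level in opposite directions, up in the libraries labelled KD and down in those labelled OE. Both comparisons share the 3 parental libraries. In KD, 5 of the 7 genes were called higher, HLA-B, HLA-C, B2M, PSMB8 and PSMB9, where 26.9% of all genes were called higher. No class I gene was called lower in KD by limma, with 0 of 7 also at an unadjusted p under 0.05, and 26.9% of all genes were called lower. In OE, B2M was called higher (16.9% of all genes), and HLA-B, HLA-C and TAPBP were called lower (18.0% of all genes). The median difference over the 7 genes was 0.13 in KD and -0.083 in OE, and over all genes it was -0.00051 and 0.00039. With each library centred on its median, 2963 of all genes were called higher and 5212 lower in OE, in place of 3762 and 4002, and PSMB8 (-0.082, adjusted p = 0.0146) was a further class I gene called lower. With a library left out, 4 genes were called higher in KD without parental replicate 3 and 1 was called lower without KD replicate 3, and 4 were called lower in OE without parental replicate 2 or OE replicate 2. These calls are described with PSMB8, PSMB9 and PSMB10.

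**Figure D1:**
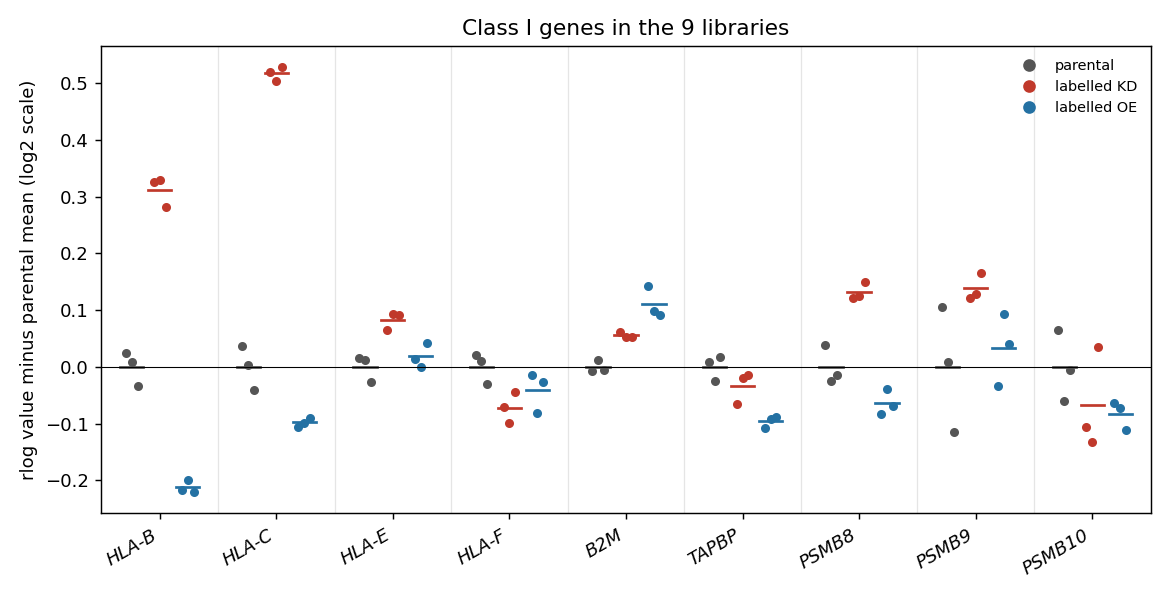
Each point is the rlog value of a gene in a library minus the mean of the 3 parental libraries (log2 scale), for 7 members and for HLA-E and HLA-F; bars are group means of 3 libraries. HLA-B and HLA-C lie above parental in the libraries labelled KD (means 0.31 and 0.52) and below it in those labelled OE (-0.21 and -0.098).

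The stretches of DNA just before the start of HLA-B, HLA-C and B2M are shown because these genes carry the largest differences or the highest level, and because heavy chains and light chain are known to share promoter elements. All 9 members have an entry in the RefSeq promoter table (GRCh38.p14), which gives 250 bases before each start and 50 after it. Each stretch has 155 bases and ends before the start site, 5′ to 3′ on the strand of the gene, and capitals mark matches on either strand to the motifs GGGGANTCCC, GAAANNGAAA, TGACG and CCAAT. The HLA-B stretch is chr6:31357220-31357374 and that of HLA-C chr6:31272133-31272287, both on the minus strand, and that of B2M is chr15:44711322-44711476 on the plus strand. GENCODE release 44 also has transcripts of HLA-B and B2M, and of neighbouring genes at all 3 places, with an exon in these stretches.
HLA-B: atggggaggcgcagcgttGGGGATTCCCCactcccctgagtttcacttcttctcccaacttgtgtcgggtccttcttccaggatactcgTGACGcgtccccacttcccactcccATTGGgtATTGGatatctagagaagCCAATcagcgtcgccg
HLA-C: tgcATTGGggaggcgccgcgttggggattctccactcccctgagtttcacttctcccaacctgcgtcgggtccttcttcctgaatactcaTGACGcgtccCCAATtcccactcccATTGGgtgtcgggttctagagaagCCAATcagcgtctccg
B2M: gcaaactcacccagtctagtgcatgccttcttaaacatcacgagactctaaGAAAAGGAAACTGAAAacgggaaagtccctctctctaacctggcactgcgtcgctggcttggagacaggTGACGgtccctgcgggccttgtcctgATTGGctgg

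HLA-B held GGGGANTCCC, the type of site NF-κB is known to bind, 177 to 168 bases before the start, and its match on the other strand overlapped this by all but a base. This motif was in the 250 upstream bases of 0.367% of the 35116 promoters of the table and was not among the letters of the HLA-C window. Both heavy chains held TGACG, a core of cyclic AMP response elements, from base 106 before the start in HLA-B and from base 105 in HLA-C, as did B2M from base 75 (21.2% of promoters). CCAAT, or ATTGG on the other strand, occurred in all 3 (32.0% of promoters), and from base 56 in both HLA-B and HLA-C. B2M held GAAANNGAAA, the type of site that interferon regulatory factors bind, from base 144 and, overlapping it, from base 138 (3.02% of promoters). Exact matches to that motif were also found for TAP1, TAP2, TAPBP, PSMB10 and HLA-F, and not for HLA-B, HLA-C, PSMB8 and PSMB9. HLA-E was without an entry. A match is a description of the letters and does not show a site in use. Only these exact letters were searched, so a gene without a match may still hold a site of that type with other letters.

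HLA-B (ENSG00000234745, chromosome 6 of GRCh38 from 31353872 to 31367067, minus strand) encodes a classical heavy chain that presents peptides to cytotoxic T cells. Its rlog values were 12.84, 12.83 and 12.78 in the parental libraries, 13.14, 13.15 and 13.10 in those labelled KD and 12.60, 12.62 and 12.60 in those labelled OE. The 3 groups did not overlap, with KD high, parental between and OE low. HLA-B was higher by 0.31 in KD (standard error 0.017, adjusted p = 1.0e-16) and fell by 0.21 in OE (standard error 0.017, adjusted p = 6.1e-12). Between OE and KD directly, the difference was -0.52 (95% confidence interval -0.56 to -0.49).

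HLA-C (ENSG00000204525, chromosome 6 from 31268749 to 31272130, minus strand) encodes the classical heavy chain that is also the main ligand of killer-cell receptors (KIR) on natural killer cells. Its rlog values were 10.48, 10.45 and 10.41 in the parental libraries, 10.97, 10.95 and 10.97 in those labelled KD and 10.34, 10.35 and 10.36 in those labelled OE. All KD libraries were above, and all OE libraries below, every parental library. HLA-C had the largest difference of the 7 genes in KD, 0.52 (standard error 0.024, adjusted p = 1.7e-18), and was the only member called higher there by over 0.5, as 2.71% of all genes were. In OE it fell by 0.098 (standard error 0.024, adjusted p = 0.00143), and the difference of OE from KD was -0.62 (95% confidence interval -0.66 to -0.57).

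Because HLA genes resemble each other and differ between people, their counts can depend on how reads were assigned. None of the 1387 windows of 150 bases in the canonical HLA-B transcript, and none of 1393 in HLA-C, occurred in an annotated transcript of another gene. Of the exonic bases annotated to HLA-B 47.3% lie in exons of other genes, among them the pseudogene DHFRP2 on the same strand, and HLA-C shares none. The library kit does not mark strand, so reads from overlapping genes on opposite strands cannot be told apart. How reads of this line's own HLA alleles aligned to the reference was not tested.

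HLA-E and HLA-F had smaller differences in KD than HLA-B and HLA-C. HLA-E, which presents leader peptides of other heavy chains to natural killer cell receptors, was higher by 0.083 in KD (adjusted p = 1.7e-04) and differed by 0.019 in OE (adjusted p = 0.473). With the median of its 20-Mb block of the chromosome removed, it was not called in KD (0.016, adjusted p = 0.432, against 6.0e-05 to 0.432 over all alternatives). HLA-F, named after its values were seen, had differences of -0.072 and -0.040 and was called in neither comparison with the main settings. It was called lower in KD without the variance trend (-0.072, adjusted p = 0.0323) and with block medians removed (-0.14, adjusted p = 0.00444), against 0.00444 to 0.321 over all alternatives. Of these 2 genes, 1 was called higher in KD with the main settings, as were 26.9% of all genes. Limma then called 0 lower in KD and 0 in either direction in OE, with 0 also at an unadjusted p under 0.05 in each case. HLA-G was not analysed here.

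Within each library, HLA-B set against HLA-C per transcript length gave a level difference of 2.38 ± 0.0098 (SD, n = 3) in the parental libraries, 2.17 ± 0.038 in those labelled KD and 2.26 ± 0.015 in those labelled OE. The 3 groups did not overlap, and the gap was widest in the parental libraries. This describes the mix of heavy chain RNA and was not tested.

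B2M (ENSG00000166710, chromosome 15 from 44711358 to 44718851, plus strand), the light chain of every class I molecule, lies outside the HLA region. Its rlog values were 14.21, 14.23 and 14.21 in the parental libraries, 14.28, 14.27 and 14.27 in KD and 14.36, 14.31 and 14.31 in OE. Here OE was highest, KD in between and parental lowest, without overlap. The differences from parental were 0.056 in KD (standard error 0.013, adjusted p = 3.5e-04) and 0.11 in OE (standard error 0.013, adjusted p = 1.5e-08), and OE was above KD by 0.055 (adjusted p = 4.9e-04). B2M was the member called higher in both groups, and in OE it moved opposite to HLA-B and HLA-C.

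TAPBP (ENSG00000231925, chromosome 6 from 33299694 to 33314284, minus strand) encodes tapasin, which holds empty class I molecules at the transporter. Its rlog values were 11.22, 11.19 and 11.23 in the parental libraries, 11.15, 11.20 and 11.20 in KD and 11.11, 11.12 and 11.13 in OE. OE lay below parental without overlap, and KD overlapped parental. TAPBP fell by 0.096 in OE (adjusted p = 5.4e-04) and differed by -0.033 in KD (adjusted p = 0.202). The lower value in OE than in KD (-0.063, adjusted p = 0.0153) was not called without KD replicate 2, KD replicate 3 or OE replicate 1 (adjusted p 0.0674, 0.0714 and 0.0559), and it was 0.017 with block medians removed (adjusted p = 0.511, against 0.00610 to 0.511 over all alternatives). Of its exonic bases 21.0% are shared with an antisense RNA.

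The inducible catalytic subunits PSMB8 (β5i), PSMB9 (β1i) and PSMB10 (β2i) replace PSMB5, PSMB6 and PSMB7 in the immunoproteasome and change which peptides are cut. PSMB8 (ENSG00000204264, chromosome 6 from 32840717 to 32844679, minus strand) had rlog values of 10.20, 10.14 and 10.15 in the parental libraries, 10.28, 10.29 and 10.31 in KD and 10.08, 10.12 and 10.09 in OE. KD was above and OE below every parental library. The difference was 0.13 in KD (standard error 0.026, adjusted p = 5.7e-05) and -0.064 in OE (adjusted p = 0.0539). The OE difference was called in 4 of 14 alternatives, without parental replicate 2 (adjusted p = 0.0411), without OE replicate 2 (0.0458), with a minimum mean rlog of 5 (0.0348) and with median-centred libraries (0.0146), with 0.0146 to 0.262 over all alternatives. OE was lower than KD by a difference of -0.20 (adjusted p = 1.2e-07). Of the exonic bases of PSMB8, 17.3% lie in exons of other genes, among them the antisense RNA PSMB8-AS1.

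PSMB9 (ENSG00000240065, chromosome 6 from 32844136 to 32859851, plus strand) overlaps PSMB8 on the opposite strand at its annotated start. In the parental libraries its rlog was 9.0, 8.90 and 8.78, with 9.02, 9.02 and 9.06 in KD and 8.86, 8.99 and 8.93 in OE. The parental libraries spread widest, KD lay just above the highest of them, and OE fell within their range. The difference of 0.14 in KD (standard error 0.041, adjusted p = 0.00469) was not called without parental replicate 3, the lowest (0.081, adjusted p = 0.0926). It was 0.033 in OE (adjusted p = 0.592), and -0.024 without that library. OE was below KD by -0.10 (adjusted p = 0.0340), a call lost without KD replicate 2, KD replicate 3, OE replicate 1 or OE replicate 3 (adjusted p 0.0626, 0.111, 0.199 and 0.0520). It was also lost without the variance trend (adjusted p = 0.125), with quantile normalization (0.0592) and with block medians removed (-0.025, adjusted p = 0.620), so in 7 of 14 alternatives. Adjusted p over all alternatives was 2.4e-04 to 0.123 for KD, 0.118 to 0.969 for OE and 0.0140 to 0.620 for OE against KD.

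PSMB10 (ENSG00000205220, chromosome 16 from 67934506 to 67936864, minus strand) lies outside the HLA region. The rlog values of PSMB10 were 7.21, 7.09 and 7.14 in the parental libraries, 7.04, 7.01 and 7.18 in KD and 7.08, 7.07 and 7.03 in OE. OE lay just below parental and KD overlapped it. Neither difference, -0.068 in KD and -0.083 in OE (adjusted p = 0.237 and 0.185), was called. Without KD replicate 3 the KD difference was -0.12 and called (adjusted p = 0.0450, against 0.0450 to 0.612 over all alternatives). Of 828 windows of 150 bases in its canonical transcript, 30.3% also occur in a transcript of an overlapping gene on the same strand (ENSG00000261884), so its level is uncertain.

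Among the constitutive subunits, PSMB5 fell by 0.17 in KD (adjusted p = 5.0e-10) and by 0.081 in OE (adjusted p = 3.8e-04), and PSMB7 fell by 0.36 (adjusted p = 1.2e-20) and by 0.067 (adjusted p = 2.5e-04). PSMB6 had differences of -0.022 and -0.019 and was called in neither. PSMB8 minus PSMB5, as levels per kilobase of transcript in each library, was -2.35, -2.45 and -2.38 in the parental libraries, -2.09, -2.11 and -2.08 in KD and -2.39, -2.34 and -2.41 in OE. KD stood above every other library for this pair and the other 2, here by a shift of 0.30 from parental that PSMB5 and PSMB8 both entered. PSMB9 minus PSMB6 shifted by 0.16 in KD and 0.052 in OE, and PSMB10 minus PSMB7 by 0.30 and -0.016. In the last pair PSMB7 fell by 0.36 in KD, and PSMB10 differed by -0.068, which was not called. With the median of its 20-Mb block removed, PSMB7 was not called in KD (-0.015, adjusted p = 0.378). In OE it was then called higher (0.037, adjusted p = 0.0410). The pairs use values without this removal. Constitutive subunits stayed above their inducible counterparts in every library of all 3 pairs.

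**Figure D2:**
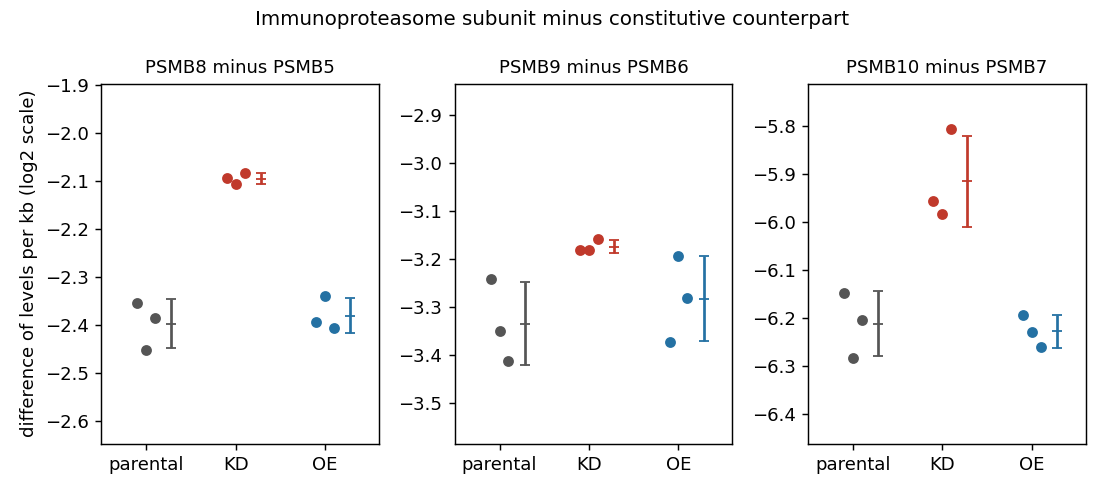
Each panel plots, for the 9 libraries, the level per kilobase of an immunoproteasome subunit minus that of its constitutive counterpart (log2 scale), with group means and SD of 3 libraries beside the points. The libraries labelled KD are above all others in all 3 panels, by the least for PSMB9 minus PSMB6, and all differences are below 0.

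Levels can be compared between genes after division by transcript length, here as rlog minus the log2 of the canonical transcript length in kilobases. In the parental libraries B2M was highest (14.30 ± 0.011, SD, n = 3), followed by HLA-B (12.20 ± 0.031), HLA-E (10.87 ± 0.023), PSMB8 (9.99 ± 0.034), HLA-C (9.82 ± 0.038), TAPBP (9.43 ± 0.022), PSMB9 (8.87 ± 0.11), PSMB10 (7.18 ± 0.063) and HLA-F (6.76 ± 0.027). In each group neighbours in this order did not overlap between libraries. The order of these genes was the same in KD and OE except that HLA-C (10.34 ± 0.013) passed PSMB8 (10.12 ± 0.015) in KD. HLA-C was thus more than 2 units below HLA-B in every library, and the light chain was above every heavy chain.

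**Figure D3:**
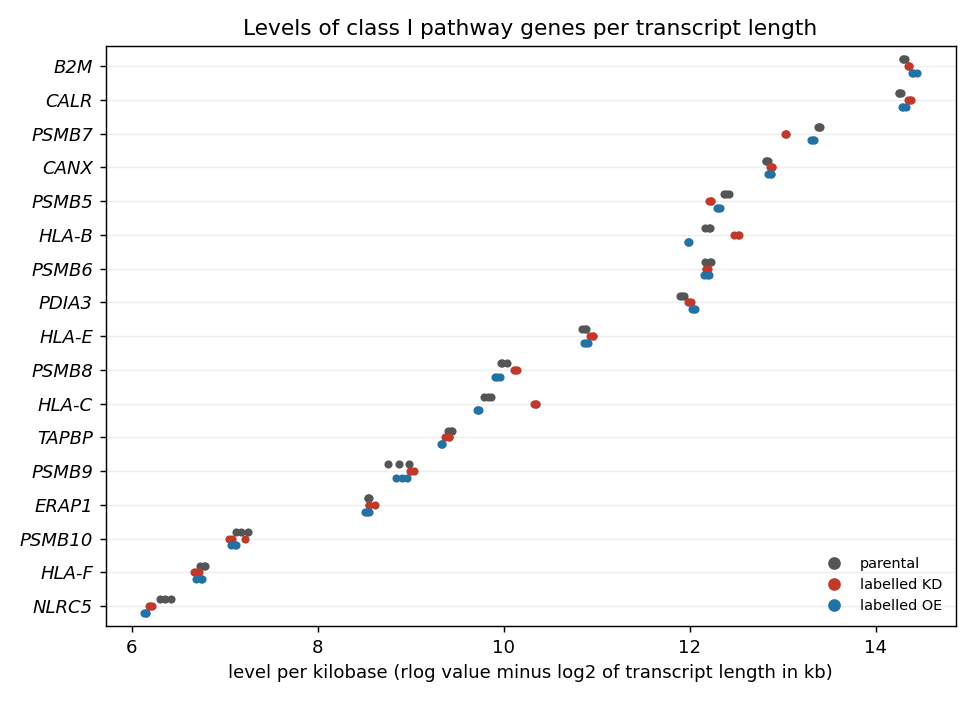
Points are the 9 libraries, with the level per kilobase (rlog minus log2 of transcript length in kb) on the horizontal axis and genes ordered by their mean. B2M, at 14.29 to 14.44, is above every heavy chain, and NLRC5, at 6.13 to 6.42, is lowest of the genes plotted.

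Position was set beside these differences, since 5 of the 7 genes lie in the HLA region. Within 2 Mb of HLA-B, 96 other genes reached a mean rlog of 5, and 57 of them (59.4%) were called higher and 12 (12.5%) lower in KD, with a median difference of 0.11. In OE 13 (13.5%) were higher and 18 (18.8%) lower, with a median of -0.012. Of all genes, 26.9% were called higher and 26.9% lower in KD, and 16.9% and 18.0% in OE. In KD 5 of the 96 exceeded HLA-C and 12 exceeded HLA-B, and in OE 3 lay below HLA-B. Named after their values were seen, the RNA genes HCP5 and HCG27 near HLA-B and HLA-C had differences of 0.73 and 0.46 in KD, and the heat shock gene HSPA1A had -1.08. Between 20 and 40 Mb on chromosome 6, 150 genes reached a mean rlog of 8, with a median difference of 0.074 in KD and -0.0047 in OE.

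With the median of that 20-Mb block removed from each gene, HLA-B (0.25) and HLA-C (0.45) were still called higher in KD and PSMB8 had 0.065 (adjusted p = 0.0289). The calls of PSMB9 (0.072, adjusted p = 0.123) and HLA-E (0.016, adjusted p = 0.432) were lost, and TAPBP (-0.10, adjusted p = 1.0e-04) and HLA-F (-0.14, adjusted p = 0.00444) were called lower. Over all alternatives adjusted p reached 0.0289 for PSMB8, 0.123 for PSMB9, 0.432 for HLA-E, 0.578 for TAPBP and 0.321 for HLA-F in KD. In OE the block changed the differences of HLA-B and HLA-C little, to -0.20 and -0.085. The part of the neighbourhood in the KD values was not tested beyond this. PSMB7 lies between 120 and 140 Mb on chromosome 9, where 148 of 164 such genes were called lower in KD. Their median was -0.35, and 26.9% of all genes were called lower. The KD difference of PSMB7 was -0.015 (adjusted p = 0.378) with the block median removed. In OE the median of that block was -0.10, and with it removed PSMB7 was called higher (0.037, adjusted p = 0.0410). Over all alternatives adjusted p reached 0.378 for PSMB7 in KD and 0.0410 in OE.

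**Figure D4:**
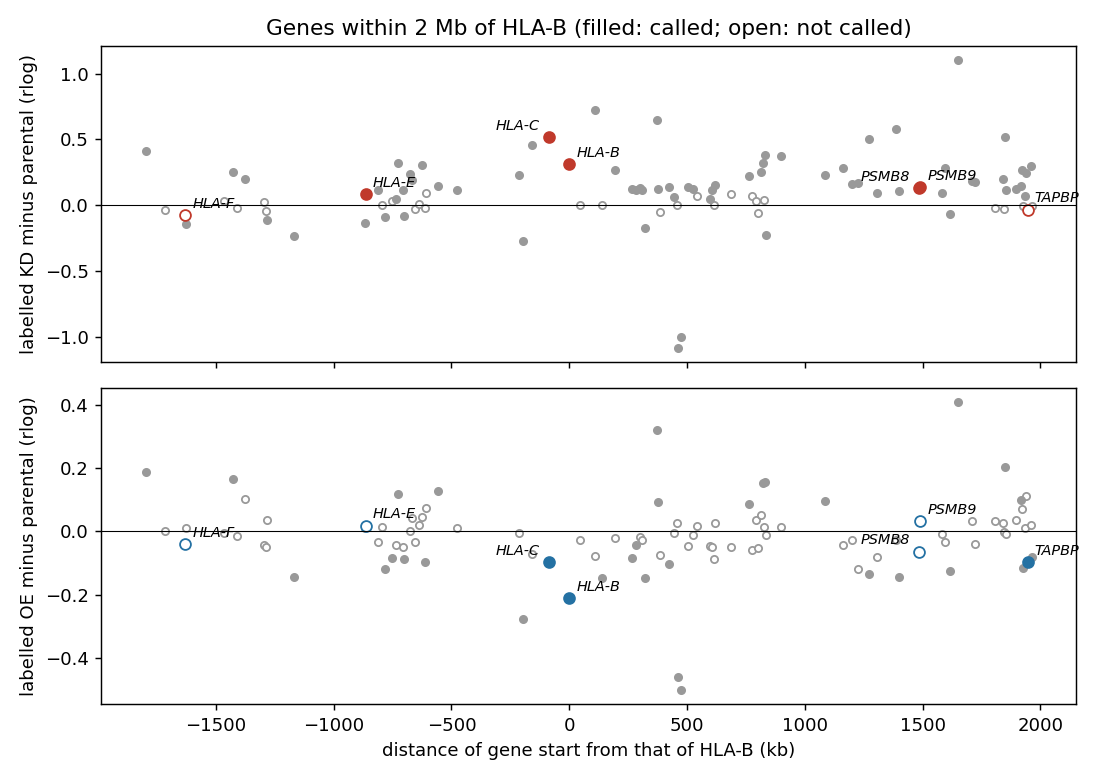
Each point is a gene that reached a mean rlog of 5 within 2 Mb of HLA-B, placed by the distance of its start from that of HLA-B (kb) and by its rlog difference from parental in the libraries labelled KD (upper panel) and OE (lower panel); filled points were called. Most called neighbours lie above 0 in KD, and HLA-B and HLA-C are among the higher ones there and lie below 0 in OE.

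Peptide loading, trimming and quality control were covered by 13 of 14 listed genes. In KD 5 were called higher and 3 lower, with a median difference of 0.031, and in OE 4 higher and 2 lower, with a median of -0.0090. Beside this and the lists below, the shares of all genes called higher and lower were 26.9% and 26.9% in KD and 16.9% and 18.0% in OE. CALR, the chaperone calreticulin of the loading complex, was higher by 0.10 in KD (adjusted p = 4.0e-09) and by 0.041 in OE (adjusted p = 0.00462), but the OE difference was not called without OE replicate 3 (0.027, adjusted p = 0.0589), without the variance trend (adjusted p = 0.147) or with median-centred libraries (0.023, adjusted p = 0.139), and was -0.0019 after quantile normalization (adjusted p 3.5e-09 to 0.915 over all alternatives). ERAP1, which trims peptides in the endoplasmic reticulum, was called in neither (0.030 and -0.014). UGGT1, a folding sensor, was higher by 0.13 in KD and differed by 0.012 in OE (adjusted p = 0.596). Of the translocon subunits SEC61G was higher by 0.17 in OE, with 0.031 in KD, called only without parental replicate 2 (0.058, adjusted p = 0.0458, against 0.0458 to 0.620 over all alternatives). SEC61B fell by 0.43 in KD and by 0.075 in OE. The OE call of SEC61B was lost without parental replicate 1, parental replicate 2 or OE replicate 2 (adjusted p 0.0722, 0.0656 and 0.109), without the variance trend (0.0664), with quantile normalization (0.0835) and with block medians removed (0.744, against 0.00571 to 0.744 over all alternatives). The chaperone HSPA5 fell by 0.34 in KD and by 0.11 in OE. SEC61B and HSPA5 lie on chromosome 9 in blocks whose median in KD was -0.36 and -0.35, and with these removed their KD differences were -0.084 and 0.011 and their OE differences -0.013 and -0.0070, of which only the first was called.

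All 5 proteasome activator and assembly genes had a row. PSME1, a subunit of the interferon-inducible PA28 cap, was higher by 0.29 in KD (adjusted p = 1.0e-12) and by 0.12 in OE (adjusted p = 9.5e-05), and its partner PSME2 by 0.094 in KD (adjusted p = 1.7e-04), with 0.013 in OE (adjusted p = 0.686). The nuclear activator PSME3 fell by 0.25 and 0.11, and the assembly factor POMP fell by 0.13 and 0.12, each called in both groups. In all, 2 of the 5 were called higher and 3 lower in KD, and 1 higher and 2 lower in OE, with medians of -0.035 and -0.027. The 3 constitutive catalytic subunits had medians of -0.17 and -0.067.

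Of 16 listed class I transcription regulators 14 had a row, and IRF1 and NFYA were not analysed here. In KD 4 were called higher and 5 lower (median -0.0034), and in OE 1 higher and 4 lower (median -0.028). The rlog values of NLRC5 were 9.11, 9.06 and 9.18 in the parental libraries, 8.97, 8.94 and 8.95 in KD and 8.92, 8.92 and 8.89 in OE. Both labelled groups were below parental without overlap, while HLA-B and HLA-C were above parental in KD and below it in OE. NLRC5 fell by 0.16 in KD (adjusted p = 9.1e-05) and by 0.21 in OE (adjusted p = 5.0e-06). Whether its differences and those of the heavy chains are linked was not tested. ATF1, of the factors that bind cyclic AMP response elements, fell by 0.17 and 0.11. Named after their values were seen, the 4 called higher in KD were NFYB (0.072), RELA (0.060), RFX5 (0.055) and NFKB1 (0.046). None of these 4 calls held under all alternatives, where adjusted p reached 0.113, 0.0572, 0.359 and 0.192, and NFKB1 was -0.027 with block medians removed. In OE NFYB was higher by 0.094 and NFKB1 fell by 0.092. Of the Polycomb subunits, known to silence class I genes, EED fell by 0.10 and 0.13 and SUZ12 fell by 0.15 in KD, with -0.043 in OE (adjusted p = 0.0744). In OE SUZ12 was called without parental replicate 2 (-0.061, adjusted p = 0.0170), with a minimum mean rlog of 5 (0.0417) and with median-centred libraries (0.0119), against 0.0119 to 0.441 over all alternatives. The catalytic subunit EZH2 had -0.025 in KD (adjusted p = 0.295) and -0.037 in OE (adjusted p = 0.145), called only in OE with median-centred libraries (-0.055, adjusted p = 0.0233, against 0.0233 to 0.565 over all alternatives).

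**Figure D5:**
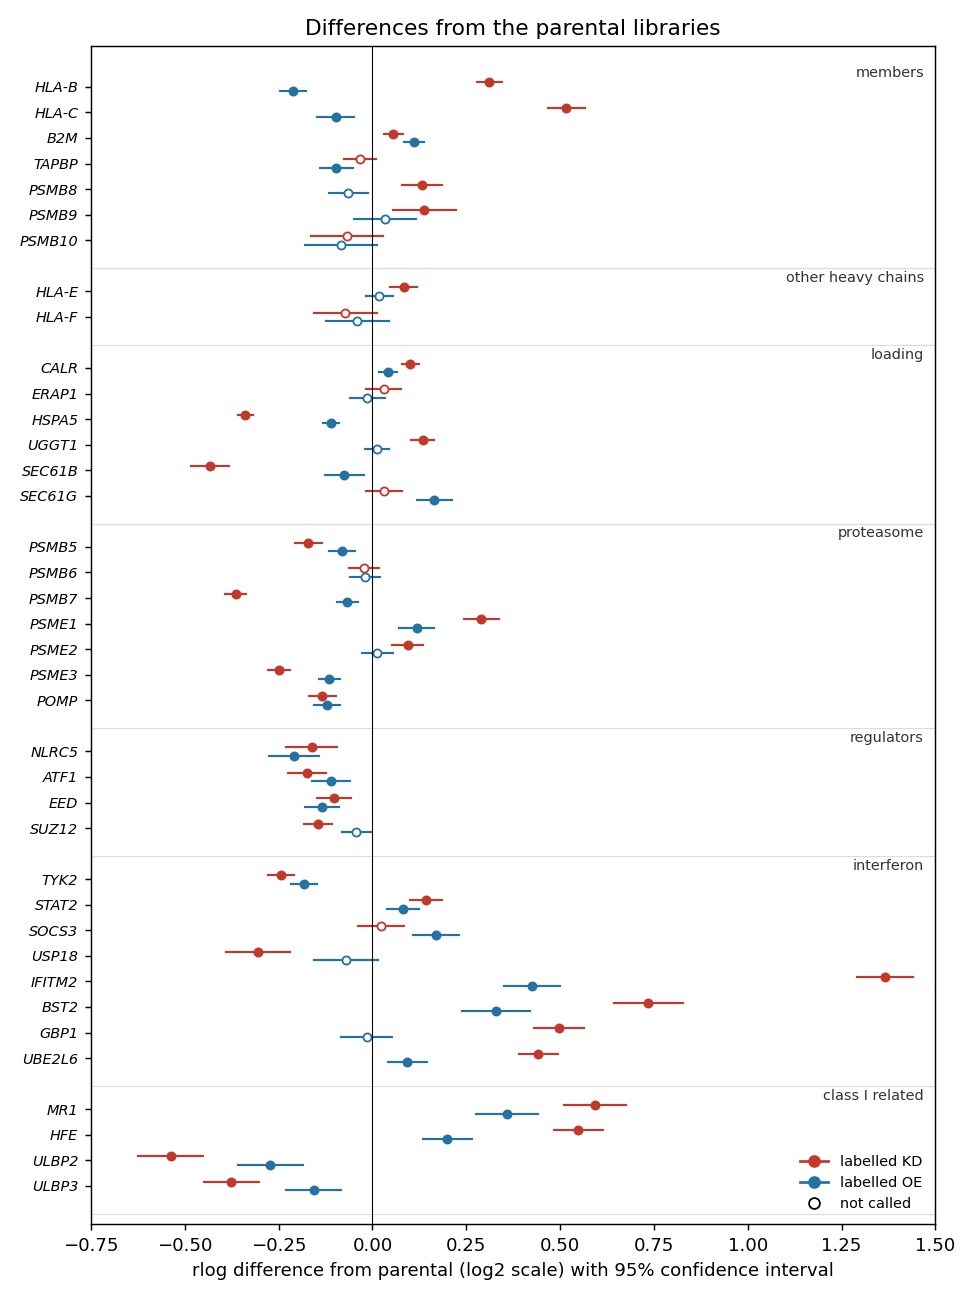
Rlog differences from parental (log2 scale) of the class I genes and of named genes of the pathway lists, for the libraries labelled KD and OE, with 95% confidence intervals from limma; open points were not called. The differences of HLA-B and HLA-C have opposite signs in KD and OE, and those of NLRC5 are below 0 in both.

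Interferon receptors and signaling genes (10 of 13 with a row) had 3 called higher and 3 lower in KD and 4 higher and 2 lower in OE, with medians of 0.0041 and 0.0070. The kinase TYK2 fell by 0.24 and 0.18, STAT2 was higher by 0.14 and 0.080, the feedback inhibitor SOCS3 was higher by 0.17 in OE and differed by 0.023 in KD (adjusted p = 0.547), and USP18 fell by 0.31 in KD and differed by -0.070 in OE (adjusted p = 0.220). Of 29 listed interferon-induced genes outside class I, 21 had a row. In KD 12 of these were called higher and 4 lower, with a median of 0.17, and in OE 7 higher and 5 lower, with a median of -0.015.

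IFITM2, a membrane factor that blocks virus entry, had rlog values of 8.16, 8.10 and 8.18 in the parental libraries, 9.48, 9.51 and 9.53 in KD and 8.61, 8.61 and 8.48 in OE. KD was far above and OE between, without overlap. The differences were 1.37 and 0.42, and BST2 (tetherin) had 0.74 and 0.33. The guanylate-binding protein GBP1 was higher by 0.50 in KD and differed by -0.015 in OE (adjusted p = 0.776), and UBE2L6, the conjugating enzyme for ISG15, was higher by 0.44 and 0.093. Without parental replicate 1 the GBP1 difference in OE was 0.0030 and was not called either (adjusted p = 0.967, against 0.393 to 0.967 over all alternatives). The 4 of this list called lower in KD, named after their values were seen, were OAS1 (-0.30), IFI27 (-0.22), IFI44 (-0.17) and ISG15 (-0.12, adjusted p = 0.0171). The ISG15 call was lost without parental replicate 2, KD replicate 2 or KD replicate 3 and with block medians removed (adjusted p 0.0666, 0.0599, 0.0840 and 0.124, against 0.00740 to 0.124 over all alternatives). In OE OAS1 and IFI44 fell by 0.33 and 0.39, and IFI27 (-0.076, adjusted p = 0.228) and ISG15 (-0.026, adjusted p = 0.714) were not called.

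Class II genes, which present peptides taken up from outside and are normally found on professional antigen-presenting cells, had rows for all 12 listed. In KD 10 were called higher and 1 lower, with a median difference of 0.17, and in OE 2 higher and 3 lower, with a median of -0.036, where 26.9% and 26.9% of all genes were called in KD and 16.9% and 18.0% in OE. The highest mean rlog was that of CD74 (16.26), with HLA-DRA at 14.46, both named after their values were seen, and 1 of the 12, HLA-DOB (4.14), was under 5. HLA-DOA was higher by 1.10 in KD and 0.41 in OE, and HLA-DMA by 0.28 in KD, with -0.033 in OE (adjusted p = 0.637). HLA-DQA1 was higher by 0.50 in KD and fell by 0.13 in OE, a call lost without parental replicate 2 (-0.095, adjusted p = 0.0710, against 0.00119 to 0.0710 over all alternatives). CIITA, the transactivator of these genes, had rlog values of 13.00, 12.96 and 13.01 in the parental libraries, 12.71, 12.71 and 12.69 in KD and 12.59, 12.62 and 12.61 in OE. Like NLRC5, its relative, it was lower in both groups without overlap, by differences of -0.29 and -0.38.

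Class I related molecules had rows for 10 of 12 listed genes. MR1, which presents vitamin metabolites to mucosal-associated T cells, was higher by 0.59 in KD and 0.36 in OE, and HFE, a regulator of iron uptake that pairs with β2-microglobulin, by 0.55 and 0.20. The stress ligands ULBP2 and ULBP3, seen by the receptor NKG2D, fell by 0.54 and 0.38 in KD and by 0.27 and 0.16 in OE. Of the list, 2 were called higher and 3 lower in KD (median 0.0034), and 4 higher and 3 lower in OE (median 0.018). Of 6 checkpoint and natural killer ligands 4 had a row, with 1 higher and 1 lower in KD and 2 higher and 1 lower in OE, and medians of -0.049 and 0.025. CD47 was higher by 0.19 and 0.12, NECTIN2 fell by 0.15 in KD and was higher by 0.12 in OE, and CD276 fell by 0.10 in OE, with -0.035 in KD (adjusted p = 0.0690, against 0.00144 to 0.391 over all alternatives). In KD it was called lower with a minimum mean rlog of 5 (adjusted p = 0.0430), with median-centred libraries (0.0203) and with block medians removed (0.00144).

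In the libraries labelled OE against those labelled KD, which compares the 2 labelled groups without the parental libraries, 5 of the 7 class I genes were called lower (HLA-B, HLA-C, TAPBP, PSMB8 and PSMB9) and B2M higher, where 23.8% of all genes were called lower and 23.5% higher. The count called lower was 3 without KD replicate 2, KD replicate 3 or OE replicate 1 and with block medians removed, and 4 without OE replicate 3, without the variance trend and with quantile normalization. All 3 libraries lay beyond all 3 parental libraries for 5 of the 7 genes in KD (59.2% of all genes) and for 6 in OE (43.2% of all genes).

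The genes most like HLA-C over the 9 libraries, by the root mean square difference of rlog values relative to parental among 13073 other genes with a symbol that reached a mean rlog of 5, were FXYD5 (0.020), HNRNPD (0.029) and ENOPH1 (0.034). Those most like HLA-B were KIAA1755 (0.025), FUT8 (0.030) and SLC24A3 (0.035). All 6 lie on other chromosomes than the HLA genes, and the likeness is a description of these libraries.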

How the data were processed

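RNA from parental cells and from cells labelled KD and OE for TRAP-1 was sequenced in 3 libraries each, as paired reads on an Illumina NovaSeq from a kit that does not mark strand. The authors trimmed reads with cutadapt, used HISAT2 for alignment to GRCh38 and featureCounts (Subread) for counts per gene, and removed genes with few counts. The strand setting, the annotation and the treatment of reads that map to several places are not given in the sources used here. The deposited values are log2 values after the authors' regularized log transform (rlog) for 22290 genes, and 3 further columns were empty. The study states one read number and does not say which library it is for, so the depth of each library is unknown.

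Gene symbols, positions and transcripts came from GENCODE release 44, which matched 22195 IDs. Group differences were fitted with limma 3.58.1 in R 4.3.3 (lmFit and eBayes with a variance trend, 2-sided, all 9 libraries), with Benjamini-Hochberg adjustment over all 22290 genes. The procedure was tested on simulated data. Tables, motifs and figures were made with Python 3.11.15, pandas 2.3.3 and matplotlib 3.10.9.

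Named are TRAP1, all 9 members, up to 4 genes per pathway list with the largest rlog difference among those called in KD or OE against parental, NLRC5, IRF1, PSMB5, PSMB6, PSMB7, HLA-E, CALR and ERAP1, and the 3 genes most like each of the 2 members with the largest difference. Other names were chosen after their values were seen. Members and lists were chosen with earlier results of these data known. Alternatives were no variance trend, robust empirical Bayes, a minimum mean rlog of 5, other scalings, removal of 20-Mb block medians, 2 groups only, a replicate block, each library left out and a minimum difference of 0.5.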

Additional observations from a re-analysis of the deposited data

How the results depend on the processing

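Over 1652 values of 55 named genes under the alternatives, 1573 kept their direction and their side of the threshold, 38 were called only as reported, 21 only under the alternative and 20 changed sign. HLA-B, HLA-C and B2M kept every call under the 14 alternatives of each comparison other than the minimum difference of 0.5. The cause of the changes was not tested.

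With a difference over 0.5 also required, the calls among all genes were 1110 in KD, 200 in OE and 793 in OE against KD, in place of 11980, 7764 and 10552. Class I genes called higher were then 1 in KD, 0 in OE and 0 in OE against KD, and those called lower were 0 in OE and 2 in OE against KD. With block medians removed, the calls among all genes were 13180 in KD, 8617 in OE and 11898 in OE against KD. Of the class I genes 4 were then called higher and 1 lower in KD, and 3 lower in OE against KD. Leaving out a library gave 11106 to 11368, 6857 to 7325 and 9636 to 10004 calls among all genes. Class I genes called lower were then 0 to 1 in KD and 3 to 5 in OE against KD.

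Changes of sign under block medians were HSPA5 (0.011), ERAP1 (-0.0097), NFKB1 (-0.027) and EZH2 (0.0025) in KD, PSMB7 (0.037), PSME2 (-0.0026), PSMB6 (8.5e-04) and ISG15 (0.026) in OE, and TAPBP (0.017) and PSMB10 (0.0029) in OE against KD. Under median centring they were TRAP1 (-3.9e-05), UGGT1 (-0.0056) and PSME2 (-0.0054) in OE. Under quantile normalization they were PSMB6 (0.0058), CALR (-0.0019) and ERAP1 (0.0043) in OE. With a library left out, the ranges in OE were -0.029 to 0.0030 for GBP1, -0.024 to 0.086 for PSMB9 and -0.012 to 0.042 for TRAP1. PSMB10 ranged from -0.048 to 0.036 in OE against KD.

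Deviations from the group mean had correlations of -0.071 to 0.14 over the 9 pairs of libraries with the same number, and the best match was the own number in 5 of 18 cases. With the replicate block, 12015, 7854 and 10623 genes were called and no call of the named genes changed. What the depth and the shrinkage of rlog values limit was not measured.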
